A study of Mus musculus with 4 samples.

Results

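The genes of fatty acid uptake and β-oxidation comprised 36 genes that were listed by name, of 53647 genes in the count tables. They covered uptake (5 genes), lipolysis and lipid storage (3), activation to acyl-CoA (5), the carnitine shuttle (4), malonyl-CoA metabolism with the mitochondrial carrier Ucp3 (3, shown as regulation in the plots), acyl-CoA dehydrogenation (4), the later steps of the β-oxidation spiral (9) and electron transfer (3). All 36 genes were among the 15173 genes that passed the filter on low counts and were tested.

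Primary myotubes of the mouse were sequenced in bulk with and without EDA-A2, in 2 libraries per condition, to ask how activation of the EDA-A2 receptor EDA2R alters gene expression in muscle cells. Wild-type (WT) myoblasts from the limb muscles of pups aged 2 to 3 days were grown with 20% FBS and 2.5 ng/ml bFGF and were differentiated in 5% horse serum. After 48 h of differentiation, recombinant EDA-A2 was added at 250 ng/ml for 24 h, and cells of both conditions were harvested at 72 h. The control condition was labelled only as control, and neither the labels nor the methods said whether the 2 libraries of a condition came from separate cultures or pups, so the p-values measure the spread between these libraries, which may be technical. Counts on genes summed to between 29444155 and 29746863 per library, and the counts of a library can be read to a floor of 3 counts, or 0.101 to 0.102 CPM.

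Muscle cells take up long-chain fatty acids through membrane transporters, bind them to a cytosolic carrier protein and couple them to coenzyme A. The carnitine shuttle carries the acyl groups into mitochondria, where each turn of the β-oxidation spiral shortens the chain through dehydrogenation, hydration, another dehydrogenation and thiolysis, and the electrons pass to the respiratory chain through electron transfer flavoprotein. Lipolysis of stored triglyceride supplies the same route from inside the cell.

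At the entry of the route (uptake, lipolysis and storage, activation), 4 of 13 genes passed the test after EDA-A2 treatment, and 0 of the 20 genes of the shuttle, spiral and electron transfer did. Over all genes tested 4.57% passed, and 0 of 20 is near that share. Fabp3, the cytosolic fatty acid carrier of muscle, fell by 37.4%. Cd36, a fatty acid translocase of the plasma membrane, fell by 25.9%. Pnpla2, which encodes adipose triglyceride lipase, and Acsl4, a long-chain acyl-CoA synthetase with a preference for arachidonate, rose by 52.5% and 24.0%. In the quasi-likelihood test of edgeR, adjusted by the Benjamini-Hochberg method over all genes tested, 2 of the 36 genes were higher and 2 were lower at an adjusted p-value under 0.05 (11.1%), where 4.57% of all genes passed (2.45% higher and 2.13% lower). The libraries of the conditions did not overlap and the unadjusted p was under 0.05 for 9 of the 36 genes (25%), where this held for 15.4% of all genes. The median log2 fold change of the 36 genes was -0.05 (-0.00 over all genes tested) and their range was -0.67 to 0.61. With total counts in place of TMM scaling, which moved the median of all genes to 0.05, the median of the 36 genes was 0.00. Each of the 4 calls was kept under 5 of 6 other scalings, filters, tests and fits, and was lost when genes with few counts were kept, with adjusted p-values from 0.0574 to 0.194. Without control replicate 1 no gene of 15704 tested passed, and without control replicate 2 none of 15716, where 2179 and 2449 genes had an unadjusted p under 0.05. Without EDA-A2 replicate 1 the called genes of the route were Cd36, Fabp3 and Pnpla2, and without EDA-A2 replicate 2 they were Fabp3 and Pnpla2. In these 4 fits the adjusted p of Acsl4 ran from 0.0817 to 0.288, and that of Cd36 was 0.0716 without EDA-A2 replicate 2.

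**Figure D1:**
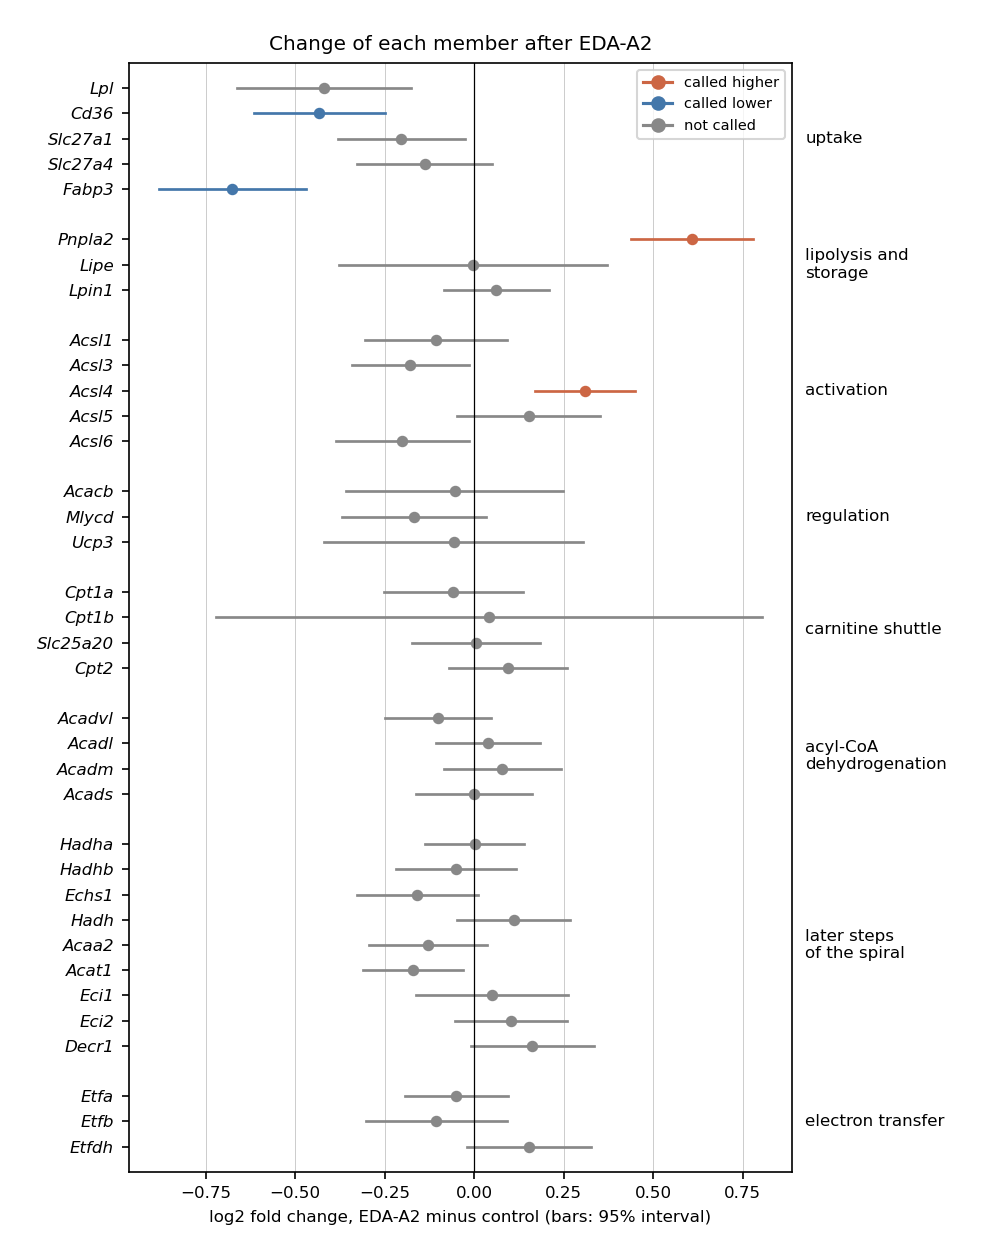
Log2 fold change of each of the 36 genes (EDA-A2 minus control, x axis, log2 scale) with its 95% interval, grouped by step of the route. Fabp3 and Cd36 lie furthest below 0 among the called genes and Pnpla2 lies furthest above, while the genes from the carnitine shuttle to electron transfer lie between -0.17 and 0.16.

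The 2 promoters below belong to the gene with the largest fall and the gene with the largest rise, and show the 250 bases upstream of the start of the canonical transcript in GRCm39 (GENCODE vM39 annotation), 5′ to 3′. The Fabp3 promoter lies on the plus strand at chr4:130202138-130202387 and the Pnpla2 promoter on the plus strand at chr7:141034813-141035062. The canonical start of Pnpla2, at 141035063, lies downstream of the first annotated base of the gene, at 141034404. Its window therefore lies within the annotated gene. Capitals mark a match to the NFκB consensus.
Fabp3: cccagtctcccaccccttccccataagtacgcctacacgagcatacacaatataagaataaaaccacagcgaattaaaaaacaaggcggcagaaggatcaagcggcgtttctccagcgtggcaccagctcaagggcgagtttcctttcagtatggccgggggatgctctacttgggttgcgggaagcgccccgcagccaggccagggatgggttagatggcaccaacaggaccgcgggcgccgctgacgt
Pnpla2: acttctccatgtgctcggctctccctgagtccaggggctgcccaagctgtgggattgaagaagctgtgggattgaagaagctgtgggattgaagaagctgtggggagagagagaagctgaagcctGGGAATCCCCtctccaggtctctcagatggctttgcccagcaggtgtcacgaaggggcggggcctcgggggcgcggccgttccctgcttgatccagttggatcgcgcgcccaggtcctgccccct
The NFκB match in Pnpla2 lay 125 to 116 bases upstream of the start, and the Fabp3 window held no match to the motifs searched. On both strands, NFκB matches were present in 10.9% of the 13065 promoters of protein-coding genes tested and in 2 of the 36 promoters of the route, those of Pnpla2 and Ucp3 (5.56%). The DR1 element of PPARs, searched in its exact form, was found in 0.0230% of all promoters, the oestrogen-related receptor element TNAAGGTCA in 0.788% and the FOXO element GTAAACA in 2.21%, and in 0 of the 36. A MEF2 match was found in 0.513% of all promoters and in that of Cpt1b among the 36.

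Of the 5 uptake genes, 2 passed the test, both lower after EDA-A2 treatment, where 2.13% of all genes were called lower. All 5 had a log2 fold change below 0 (50.5% of all genes tested), with a median of -0.42. Their EDA-A2 libraries lay below the control libraries in 5 of 5, where this held for 3371 of 15173 genes tested. In either direction, the libraries of the conditions did not overlap for 45.0% of all genes tested. Fabp3 (ENSMUSG00000028773, chromosome 4 from 130202388 to 130209259 in GRCm39) had 2642 and 2244 normalized counts in the controls, and 1389.9 and 1669.7 after treatment. Both treated libraries were below both controls, and the means were 2443 ± 281 (SD, n = 2) and 1529.8 ± 198 (SD, n = 2). The log2 fold change was -0.67 ± 0.10 (SE), with an adjusted p of 0.000643. Of the Fabp3 transcript, 56.7% lies opposite an exon of Zcchc17, which had 758 to 834 counts in the 4 libraries.

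Cd36 (ENSMUSG00000002944, chromosome 5 from 17986432 to 18094067) had 1946 and 2302 normalized counts in the controls, and 1615 and 1534 after treatment. The conditions did not overlap, and the control libraries differed from each other more than the treated ones. Its log2 fold change was -0.43 ± 0.09 (SE), with an adjusted p of 0.00755. Lpl, which encodes the lipase that releases fatty acids from circulating lipoproteins, had 459.5 and 539 normalized counts in the controls and 361 and 387 after treatment. The log2 fold change of Lpl was -0.42 ± 0.11 (SE) without overlap, but its adjusted p of 0.0511 missed the threshold. It was 0.0492 with DESeq2 size factors, and ran from 0.0160 to 0.299 over 6 alternatives that used all libraries.

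Transporters of the SLC27 family completed the step. Slc27a1, which encodes FATP1, had 1193 and 1262 normalized counts in the controls and 1015 and 1116 after treatment, with a log2 fold change of -0.20 (adjusted p = 0.230). Slc27a4, which encodes FATP4, had a log2 fold change of -0.14 with a 95% interval from -0.33 to 0.05. Summed over the 5 genes, normalized counts differed by -25.4% between the conditions, and the sum is dominated by Fabp3 and Cd36.

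**Figure D2:**
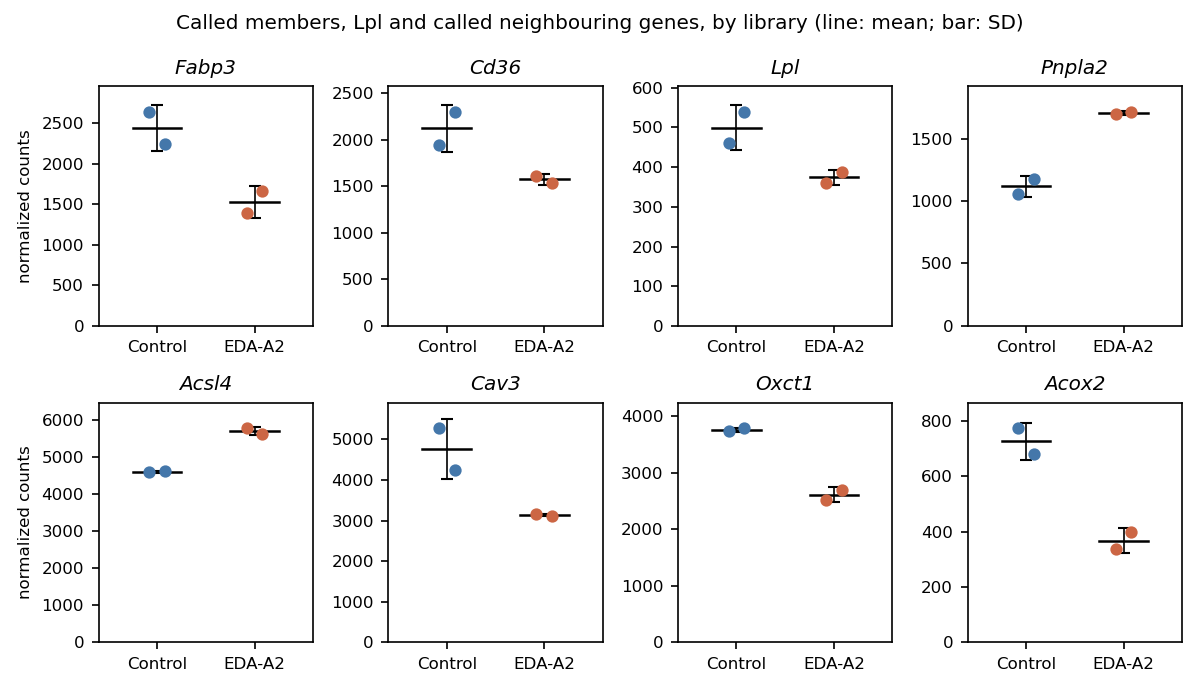
Normalized counts in each library (y axis from 0) for the 4 genes that passed the test, Lpl and 3 called genes of related routes, with the mean as a line and the SD as a bar. In each panel both EDA-A2 libraries lie on one side of both control libraries.

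Some differentiated muscle genes moved in the same libraries. Of 8 markers of myotubes, all had a log2 fold change below 0 (50.5% of all genes tested). Of them 4 were called lower (Myh3, Myh8, Acta1 and Actn2), where 2.13% of all genes were. Mymk (-0.01), Myog (-0.18), Ttn (-0.25) and Ckm (-0.36) were not called. Summed normalized counts of the 8 were 678127 and 648491 in the controls and 480684 and 484501 after treatment, a difference of -27.2%. The sum is dominated by Myh3 and Acta1. Cd36 is also expressed in adipocytes and endothelial cells, whose markers were low apart from Egfl7. Of 7 adipocyte markers, Plin1, Lep and Retn were at 0 in all 4 libraries, and the sum ran from 8.84 to 17.1 normalized counts. The 5 endothelial markers summed to 279 and 299 in the controls and 262 and 268 after treatment. Most of this sum was Egfl7, with 251 and 267 in the controls and 229 and 240 after treatment. Of 4 markers of undifferentiated myoblasts, 3 had a log2 fold change below 0 (Pax7 -0.17, Myf5 -0.24 and Cdkn3 -0.05, none called), and Vcam1 was called higher (0.53). Their median was -0.11, while the sum, in which the mean of Vcam1 was higher and those of the other 3 lower after treatment, was 2702 and 2956 in the controls and 3135 and 3352 after treatment. The 6 markers of fibroblasts and fibro-adipogenic cells summed to 426 and 479 in the controls and 528 and 497 after treatment. Pdgfra made up most of this sum, with 247 and 288 in the controls and 302 and 295 after treatment. The 3 that were tested, Pdgfra, Dcn and Col15a1, had log2 fold changes of 0.16, 0.48 and 0.03. Among those not tested, Lum was at 0 in all 4 libraries. Pi16 (11 and 5 raw counts in the controls, 1 and 4 after treatment) and Dpt (3 and 3, then 2 and 3) had lower means after treatment. The 6 macrophage markers summed to 276 and 237 in the controls and 371 and 271 after treatment, with C1qa at 0 in all 4 libraries. Mrc1 made up most of this sum, with 217 and 169 in the controls and 282 and 199.5 after treatment. Adgre1, Ptprc and Csf1r had at most 1, 2 and 8 raw counts in a library. Only 2 of the 6 macrophage markers were tested, Cd68 and Mrc1, with log2 fold changes of 0.30 and 0.32. Of the 3 and 2 genes tested in these last 2 lists, edgeR and DESeq2 called 0. In edgeR 1 and 0 of them had an unadjusted p under 0.05. The part of these markers in the changes of the uptake genes was not tested, and in bulk RNA fewer cells of a type and less RNA per cell cannot be told apart.

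Of the 3 genes of lipolysis and storage, 1 passed the test, where 4.57% of all genes did. Pnpla2 (ENSMUSG00000025509, chromosome 7 from 141034404 to 141040656) had 1058 and 1179 normalized counts in the controls, and 1697 and 1716 after treatment. Both treated libraries exceeded both controls and lay close to each other. The log2 fold change was 0.61 ± 0.08 (SE), with an adjusted p of 0.000304. Lipe, which encodes hormone-sensitive lipase, had 142 to 172 normalized counts in the controls and 139 to 175 after treatment, with a log2 fold change of -0.00 and a 95% interval from -0.38 to 0.37. Lpin1, a phosphatidate phosphatase of triglyceride synthesis, had a log2 fold change of 0.06 with an interval from -0.08 to 0.21.

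Of the 5 activation genes, 1 passed the test, where 4.57% of all genes did. Acsl4 (ENSMUSG00000031278, chromosome X from 141100840 to 141173789) had 4580 and 4608 normalized counts in the controls, and 5768 and 5623 after treatment. The treated libraries lay above the controls by far more than the gaps within a condition, and the log2 fold change was 0.31 ± 0.07 (SE), with an adjusted p of 0.0114. Acsl3 had 12119 and 10432 normalized counts in the controls and 9939 and 9989 after treatment, with a log2 fold change of -0.18 (adjusted p = 0.263). Acsl6 had 3012 and 2455 in the controls and 2366 and 2389 after treatment, with a log2 fold change of -0.20 (adjusted p = 0.268). For both, the treated libraries were below the controls, and the lower control library lay close to them.

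The other synthetases, Acsl1 and Acsl5, had log2 fold changes of -0.11 and 0.15. Of the Acsl5 transcript, 42.8% lies opposite exons of Zdhhc6, which had 1345 to 1415 counts in the 4 libraries. If strand was not used in counting, the level of Acsl5 and the shares below are uncertain. Per kilobase of transcript, Acsl3 made up most of the 5 synthetase transcripts, with 64.5% and 61.4% in the controls and 57.9% and 58.5% after treatment. The share of Acsl4 was 17.2% and 19.2% in the controls and 23.8% and 23.3% after treatment, a difference of 5.34 percentage points. An exact two-sided permutation test gave 0.333 for both, the smallest p that 2 against 2 libraries allow, so it could not pass 0.05.

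**Figure D3:**
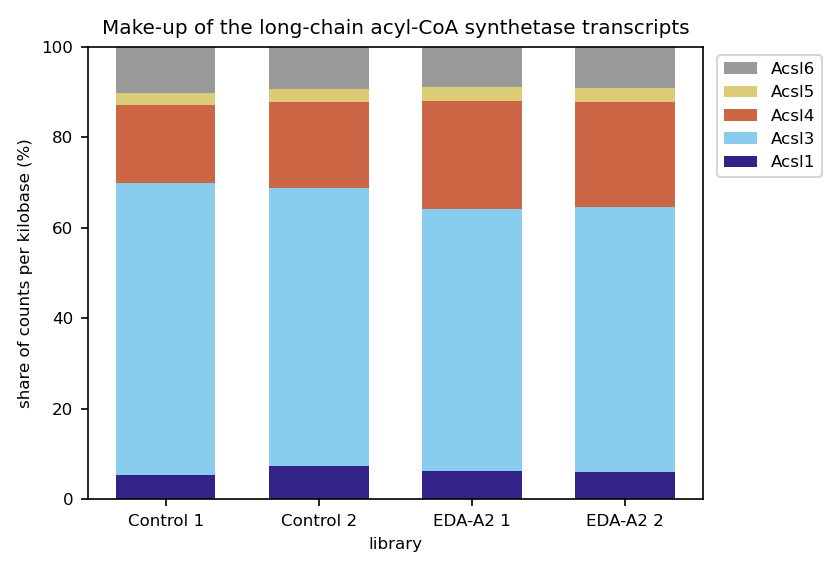
Share of each long-chain acyl-CoA synthetase in the summed counts per kilobase of the 5 genes (y axis, percent), in each of the 4 libraries (x axis). Acsl4 takes 17.2% and 19.2% in the controls and 23.8% and 23.3% after EDA-A2 treatment, and Acsl3 is the largest share in all 4 libraries.

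In the carnitine shuttle, 0 of 4 genes passed edgeR's test, 0 had an unadjusted p under 0.05 and DESeq2 called 0. Over all genes tested, 4.57% passed edgeR's test and 15.6% had an unadjusted p under 0.05. Slc25a20, the carnitine-acylcarnitine translocase and the gene of the step with the highest level per kilobase, had 1147 and 1295 normalized counts in the controls and 1204 and 1248 after treatment. The treated values lay between the controls, with a log2 fold change of 0.01 and a 95% interval from -0.17 to 0.18. Cpt1a and Cpt2, which encode the outer and inner membrane carnitine palmitoyltransferases, had log2 fold changes of -0.06 and 0.09.

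Cpt1b, the muscle isoform of the outer membrane enzyme, had only 21 and 38 raw counts in the controls and 26 and 37 after treatment. Its log2 fold change was 0.04 with an interval from -0.72 to 0.80, the widest of the 36 genes. Of its canonical transcript, 89.9% lies in exons of Gm44502 on the same strand, which itself had 0 or 1 count in each library. Reads that fall on both genes may have been counted for neither, so the level of Cpt1b is uncertain. By the full transcript length it made up 4.37% of the Cpt1a and Cpt1b signal per kilobase in the controls, and by the length outside Gm44502 30.8%.

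Of the genes of malonyl-CoA metabolism and Ucp3, 0 of 3 passed edgeR's test, 0 had an unadjusted p under 0.05 and DESeq2 called 0. The shares over all genes tested were 4.57% and 15.6% by edgeR. Ucp3, a mitochondrial carrier of muscle that responds to fatty acid supply, had 494 and 831 normalized counts in the controls and 682 and 592 after treatment. The treated values lay between 2 controls that differed by 0.75 on the log2 scale, and without control replicate 2 its log2 fold change turned from -0.06 to 0.37. Mlycd, which encodes the malonyl-CoA decarboxylase that relieves inhibition of CPT1, had a log2 fold change of -0.17 with an interval from -0.37 to 0.03. Acacb, which encodes the carboxylase that makes malonyl-CoA at mitochondria, had -0.05.

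Along the spiral, 0 of 13 genes passed edgeR's test, 1 had an unadjusted p under 0.05 and DESeq2 called 0. By edgeR, 4.57% of all genes tested passed and 15.6% had an unadjusted p under 0.05. Their log2 fold changes lay between -0.17 and 0.16, and the 95% interval of all 13 lay between -0.33 and 0.33. Acadl, the long-chain acyl-CoA dehydrogenase and the most abundant of the 36 transcripts per kilobase, had 8359 and 8978 normalized counts in the controls and 8845 and 8957 after treatment. The conditions overlapped and the log2 fold change was 0.04. The very long-, medium- and short-chain dehydrogenase genes Acadvl, Acadm and Acads had log2 fold changes of -0.10, 0.08 and -0.00.

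The subunits of the trifunctional protein, Hadha and Hadhb, had log2 fold changes of 0.00 and -0.05. Acat1, the acetoacetyl-CoA thiolase that also acts in ketone body use, had 4159 and 4228 normalized counts in the controls and 3687 and 3767 after treatment. These values did not overlap, and its log2 fold change of -0.17 had an unadjusted p of 0.0207 and an adjusted p of 0.197. Acaa2, the 3-ketoacyl-CoA thiolase, had 3817 and 4079 in the controls and 3364 and 3855 after treatment, which overlapped. The hydratase gene Echs1 (-0.16), the hydroxyacyl-CoA dehydrogenase gene Hadh (0.11) and the auxiliary enzyme genes for unsaturated chains, Eci1 (0.05), Eci2 (0.10) and Decr1 (0.16), did not pass on this log2 scale.

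In electron transfer, 0 of 3 genes passed edgeR's test, 0 had an unadjusted p under 0.05 and DESeq2 called 0. The shares over all genes tested were 4.57% and 15.6% by edgeR. Etfa had 4218 and 4409 normalized counts in the controls and 4082 and 4255 after treatment, with overlap and a log2 fold change of -0.05. Etfdh, which passes the electrons to ubiquinone, had a log2 fold change of 0.15, and Etfb had -0.11. Of the Etfb transcript, 69.1% lies in exons of Etfbl on the same strand, so its level is uncertain in the same way as that of Cpt1b.

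**Figure D4:**
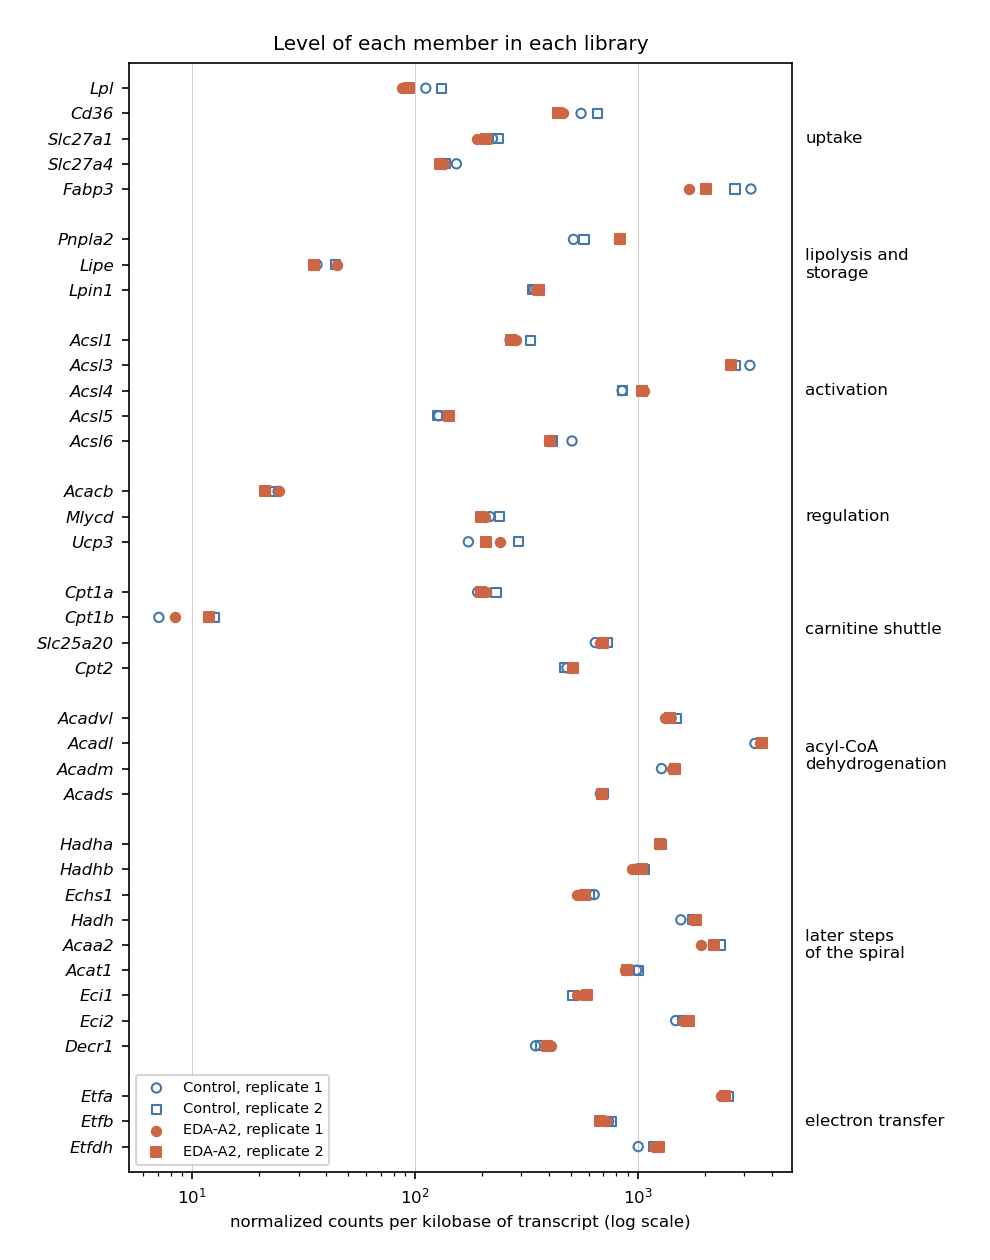
Level of each of the 36 genes (x axis, normalized counts per kilobase of transcript, log scale) in the 2 control and 2 EDA-A2 libraries, grouped by step. Acadl, Fabp3 and Acsl3 are the highest in the control libraries. Cpt1b is the lowest by full transcript length, but its level is uncertain because most of its transcript lies in exons of Gm44502.

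Per kilobase of transcript, the mean level in the controls was 3470 normalized counts for Acadl, 2968 for Fabp3 and 2955 for Acsl3. The order of Fabp3 and Acsl3 was not resolved, since their control means lay closer together than the control libraries of either gene. After treatment, Fabp3 was at 1859 per kilobase and Acsl3 at 2612.

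Related genes outside the 36 were read from 4 lists of 95 genes, of which 80 were tested, with 0 higher and 3 lower (3.75%). This is near the share over all genes tested, of which 4.57% were called (2.45% higher and 2.13% lower). Acox2, the peroxisomal branched-chain acyl-CoA oxidase of bile acid synthesis, had 773 and 679 normalized counts in the controls and 335 and 399 after treatment. Its log2 fold change was -0.98 ± 0.11 (SE), with an adjusted p of 9.4e-05. Oxct1, the enzyme that activates ketone bodies in muscle, had 3736 and 3790 in the controls and 2517 and 2705 after treatment, with a log2 fold change of -0.53 (adjusted p = 0.000304). Cav3, the muscle caveolin, had 5278 and 4242 in the controls and 3155 and 3119 after treatment, with a log2 fold change of -0.60 (adjusted p = 0.000826). In all 3 the treated libraries were below both controls.

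Among 22 regulators of the route, 19 were tested. By edgeR 0 passed, 4 had an unadjusted p under 0.05 (21.1%), and DESeq2 called 0. The shares over all genes tested were 4.57% and 15.6% by edgeR. The smallest p was that of Angptl4, a secreted inhibitor of lipoprotein lipase, which had 356 and 540.5 normalized counts in the controls and 675 and 621 after treatment. Both treated libraries exceeded both controls, but the controls differed widely and the adjusted p was 0.0530, with a log2 fold change of 0.53.

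**Figure D5:**
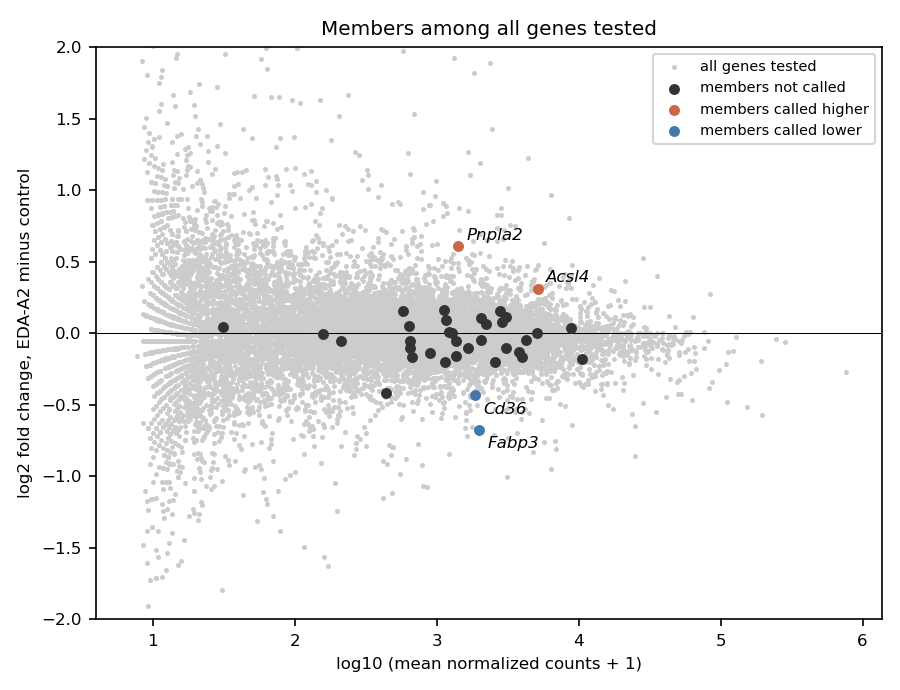
Log2 fold change (y axis, EDA-A2 minus control) against mean level for all 15173 genes tested, with the 36 genes of the route marked. The range is limited to 2 on either side of 0, outside which 29 genes lie, and the 36 genes lie between -0.67 and 0.61.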

How the data were processed

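RNA of mouse primary myotubes was sequenced from polyadenylated, stranded libraries, 2 per condition. Per the labels and methods, the authors trimmed reads with Trim Galore 0.6.5, mapped them to GRCm39 with STAR 2.7.3a and counted them with HTSeq 0.11.1. The deposited values are raw counts per Ensembl gene. The annotation release, strand option and overlap mode are not given in the sources used here. Without strand, overlapping genes on opposite strands cannot be told apart. Besides Fabp3 and Acsl5, this concerns among others Acadvl (44.5% of its transcript opposite Dvl2, with 647 to 793 counts) and Etfdh (25.2% opposite Ppid, with 2495 to 2937 counts). It also concerns Hadha (47.5% opposite Garem2, with 34 to 37 counts). HTSeq's summary lines were left out: 6.68% to 7.40% of pairs fell on no counted feature, 0.946% to 0.986% were ambiguous and 4.56% to 4.76% did not map uniquely.

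edgeR 4.0.16 in R 4.3.3 was used for the tests (TMM, factors 0.972 to 1.026; filterByExpr, minimum count 10, minimum total 15; quasi-likelihood test, design of condition alone). The Benjamini-Hochberg adjustment was made over the 15173 genes tested with a threshold of 0.05. GENCODE vM39 named 52610 of 53647 genes and gave canonical transcript lengths. Normalized counts were obtained by bringing each library to the average effective size after TMM. DESeq2 1.42.0, other scalings and filters, a replicate block and each library left out were alternatives. The steps were tested on simulated counts. Floors cover counting error only.

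The members and gene lists were chosen with earlier results of these data known. Library values were given for members that passed, that did not overlap with an unadjusted p under 0.05, or that had the highest level per kilobase of their step, and for the called genes or, if none, the smallest p of each related list.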

Additional observations from a re-analysis of the deposited data

How the results depend on the processing

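Over 10 alternatives, 22 of the 36 genes kept the sign of their log2 fold change, 6 changed it under another scaling, filter or test, and 8 only without a library. The genes called higher and lower were 371 and 323, of them 2 and 2 of the route. With total counts 194 were lower, the median of the route was 0.0046, and Lipe (0.052), Acacb (0.00081), Acads (0.054), Hadhb (0.0041) and Etfa (0.0052) turned positive. With no filter 64 were higher and 22 lower, with 0 and 0 of the route and 7 of its genes at an unadjusted p under 0.05. Hadha was -0.00058 with DESeq2 size factors and by DESeq2's Wald test and -0.0034 with no filter, and Acads 0.00058 with at least 10 counts in every library. DESeq2 called 294 and 271, with the same 4 genes of the route.

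The labels and methods do not say whether a replicate number marks a shared culture or day, and the libraries were not treated as paired in the main test. The deviations of same-numbered libraries from their condition means correlated at 0.0598 over all genes tested. Taken over all genes, this value cannot settle pairing for a part of them. In the shuttle, spiral and electron transfer, replicate 2 was above replicate 1 in 17 of 20 genes in the controls and in 16 of 20 after EDA-A2 treatment. With the replicate block 529 genes were lower and 537 higher, and Lpl passed (adjusted p = 0.0160).

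Leaving out each library in turn, where the lone library is assumed to vary like the other condition, gave 0 to 238 genes higher and 0 to 170 lower, with 0 to 1 of the route higher and 0 to 2 lower. The median of the route ran from -0.071 to 0.019. Fabp3 and Pnpla2 were called without either EDA-A2 library, Cd36 without replicate 1 of EDA-A2 and Acsl4 in none of the 4. Log2 fold changes ran from -0.31 to 0.51 for Cpt1b, -0.077 to 0.097 for Slc25a20, -0.011 to 0.092 for Acadl, -0.014 to 0.18 for Acadm, -0.0078 to 0.013 for Hadha, -0.18 to 0.16 for Lipe, -0.25 to 0.056 for Acsl1, -0.19 to 0.086 for Cpt1a, -0.38 to 0.37 for Ucp3, -0.022 to 0.023 for Acads, -0.13 to 0.024 for Hadhb, -0.028 to 0.13 for Eci1 and -0.17 to 0.047 for Acacb. The difference in share ran from -0.501 to 1.31 percentage points for Cpt1b and from -1.22 to 0.764 for Acsl1. Added after the data were seen, lengths outside shared exons left each share difference with its sign, and the counts of calls were the same without Cpt1b and Etfb. The causes of these changes were not tested.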

Other observations

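Replicates of a condition differed mostly in a common direction along the shuttle, spiral and electron transfer. Control replicate 2 was above control replicate 1 in 26 of the 36 genes (72.2%, against 50.1% of all genes tested) and in 17 of the 20 genes of the shuttle, spiral and electron transfer. EDA-A2 replicate 2 was above EDA-A2 replicate 1 in 24 of the 36 genes (66.7%, against 51.8%) and in 16 of the 20. The difference between the control replicates was larger than the EDA-A2 change in 19 of the 36 genes (52.8%, against 54.9%), and that between the EDA-A2 replicates in 12 (33.3%, against 46.9%).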
